A study of Mus musculus with 4 samples.

Results

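The accessible promoters described here were ATAC-Seq peaks that the list of non-endothelial heart nuclei held and the list of endothelial nuclei did not. They were chosen by the peaks' positions in the deposited lists: a peak of the GFP- list that overlapped no GFP+ peak by 1 bp, with its summit within 1000 bp of an annotated protein-coding transcript start. There were 1345 such peaks at 1208 genes. They made up 9.28% of the 14497 GFP- peaks at promoters, whereas 30.3% of all 78912 GFP- peaks overlapped no GFP+ peak, and 5.57% of the 21670 protein-coding genes examined had a GFP- only promoter peak.

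Nuclei came from whole hearts of 8 to 12 week old male C57BL/6 mice that carried both Cdh5-Cre and the NuTRAP reporter, and no agent was given. NuTRAP tags nuclei with GFP once Cre has acted, and Cdh5 is the endothelial cadherin gene, so GFP+ nuclei were those of endothelial cells and their descendants and GFP- nuclei were the others within the same sort gate, which per the study's methods took single, non-dividing diploid nuclei. Each population had 2 replicate libraries of 100 to 50000 sorted nuclei, and the authors called 1 list of peaks per population from both replicates, 65008 peaks in GFP+ nuclei and 78912 in GFP- nuclei. The libraries were downsampled to a like depth before calling, but neither reads nor single replicates are given in the deposited lists. There was thus no replicate check and no test, and the 95% intervals given for shares (Wilson) and for medians cover counting error only. A peak missing from the GFP+ list was not called there, which does not show that the promoter was closed, and in bulk nuclei fewer cells of a type cannot be told apart from less accessibility per cell.

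A promoter is the stretch around a transcription start where the polymerase assembles, and at an active start the nucleosomes are displaced so that Tn5 can insert sequencing adapters. Promoters of broadly used genes mostly lie in CpG islands, while many promoters of genes of 1 differentiated cell type are poor in CpG and open with that cell type. The non-endothelial cells of a heart include cardiomyocytes, fibroblasts, pericytes, smooth muscle, nerve and blood cells. Any of these that descend from endothelial cells would carry GFP and be sorted as GFP+, and how many did was not measured.

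Stretches of the peaks that carry the results below are printed from the GRCm38.p6 (mm10) genome in the direction of transcription, outside annotated exons. Capitals mark matches on either strand to the consensus words searched, which were AP-1 (TGANTCA, with C or G as N), the E-box preferred by TCF21 (AACAGCTG), TEAD (GGAATG), RUNX (TGTGGTT), NFI (TTGGCA), ETS (CAGGAAGT), SOX (CCATTGT), the GC box (GGGGCGGGG), the CCAAT box, the TATA box (TATAAA), and EBF, MEF2 and CArG, the site of serum response factor, by name. A match describes the letters and is not a measured binding site. The first stretches come from the largest peak at a main start, Mrgprf at chr7:145300602-145300721 on the plus strand, from the largest peaks of the fibroblast and mural lists, Dpep1 at chr8:123186122-123186241 on the plus strand and Ndufa4l2 at chr10:127514794-127514913 on the plus strand, and from the neuronal tubulin gene Tubb3 at chr8:123411370-123411423 on the plus strand and the complement gene C1qb at chr4:136886188-136886307 on the minus strand.
Mrgprf: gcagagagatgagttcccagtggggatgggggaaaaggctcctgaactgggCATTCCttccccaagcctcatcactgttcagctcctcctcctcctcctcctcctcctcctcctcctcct
Dpep1: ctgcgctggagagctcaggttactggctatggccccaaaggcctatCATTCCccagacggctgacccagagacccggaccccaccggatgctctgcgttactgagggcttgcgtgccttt
Ndufa4l2: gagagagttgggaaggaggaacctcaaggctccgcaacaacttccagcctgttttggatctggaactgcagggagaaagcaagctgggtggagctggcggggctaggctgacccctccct
Tubb3: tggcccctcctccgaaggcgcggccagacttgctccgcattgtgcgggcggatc
C1qb: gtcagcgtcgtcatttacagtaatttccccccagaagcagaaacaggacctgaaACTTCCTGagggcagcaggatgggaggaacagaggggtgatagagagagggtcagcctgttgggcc

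Mrgprf and Dpep1 each held a TEAD word and C1qb an ETS word in the stretch shown, and the other 2 held none of the words. The next stretches show 4 promoters with a word named in the results, picked after the words had been counted. Tagln at chr9:45936059-45936178 on the minus strand and Acta2 at chr19:34254269-34254388 on the minus strand encode smooth muscle contractile proteins and held a CArG box. Sox9 at chr11:112782104-112782223 on the plus strand and Ror2 at chr13:53286125-53286244 on the minus strand held an AP-1 word.
Tagln: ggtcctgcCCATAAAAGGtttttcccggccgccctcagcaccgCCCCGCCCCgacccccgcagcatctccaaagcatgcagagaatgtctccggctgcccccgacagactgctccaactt
Acta2: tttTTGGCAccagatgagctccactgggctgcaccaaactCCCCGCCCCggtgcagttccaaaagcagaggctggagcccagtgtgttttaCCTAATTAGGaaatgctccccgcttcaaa
Sox9: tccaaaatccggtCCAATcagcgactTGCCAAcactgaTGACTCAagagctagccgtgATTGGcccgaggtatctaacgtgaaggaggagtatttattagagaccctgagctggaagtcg
Ror2: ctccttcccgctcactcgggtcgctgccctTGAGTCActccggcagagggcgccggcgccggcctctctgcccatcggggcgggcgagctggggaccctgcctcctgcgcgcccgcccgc

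The last stretches belong to alternative starts, namely the largest and second largest such peaks, Kcnip3 at chr2:127482609-127482728 on the minus strand and Prpsap1 at chr11:116494679-116494798 on the minus strand, and the peaks of the cardiomyocyte factor gene Nkx2-5 at chr17:26844602-26844721 on the minus strand and of the myelin gene Prx at chr7:27507231-27507350 on the plus strand. Prpsap1 held the TCF21 word, read on the opposite strand.
Kcnip3: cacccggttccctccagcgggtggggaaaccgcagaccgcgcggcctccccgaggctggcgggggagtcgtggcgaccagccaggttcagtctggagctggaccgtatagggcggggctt
Prpsap1: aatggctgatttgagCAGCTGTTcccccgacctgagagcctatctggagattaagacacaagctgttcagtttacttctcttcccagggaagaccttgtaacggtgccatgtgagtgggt
Nkx2-5: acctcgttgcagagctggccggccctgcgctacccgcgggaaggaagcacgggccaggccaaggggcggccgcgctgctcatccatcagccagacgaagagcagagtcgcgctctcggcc
Prx: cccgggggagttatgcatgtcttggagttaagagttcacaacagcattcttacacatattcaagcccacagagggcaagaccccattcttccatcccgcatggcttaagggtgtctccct

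GFP- only promoter peaks were small. A peak's area is the area under the significance curve of the authors' caller along the peak, and not a read count. It was ranked here from 0 to 100 within its own list. The median rank was 24.97 (95% interval 22.6 to 27.3) and the highest 96.1, against a median of 88.7 for the 13152 GFP- promoter peaks that overlapped a GFP+ peak, called shared below. Their median length was 417 bp, against 1167 bp for shared peaks. Of the 1345 peaks, 1033 (76.8%) lay in the lower part of the list with a rank under 50 and 62 had a rank of 75 or more.

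The share of GFP- promoter peaks without a GFP+ peak moved with rank. It was 58.7% at ranks from 0 to 20, then 35.6%, 22.4% and 6.98% in the next steps of 20, and 0.408% at ranks from 80 to 100. Over GFP- peaks anywhere in the genome the same shares were 62.4%, 40.7%, 27.3%, 17.7% and 3.50%. The highest step held 9320 of the promoter peaks, and 38 of them were GFP- only. Whether weak peaks were missed in the GFP+ list for lack of signal was not tested. The mirror set of 479 GFP+ promoter peaks with no GFP- peak was 3.42% of 13998 and had a median rank of 16.6 in its own list.

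**Figure D1:**
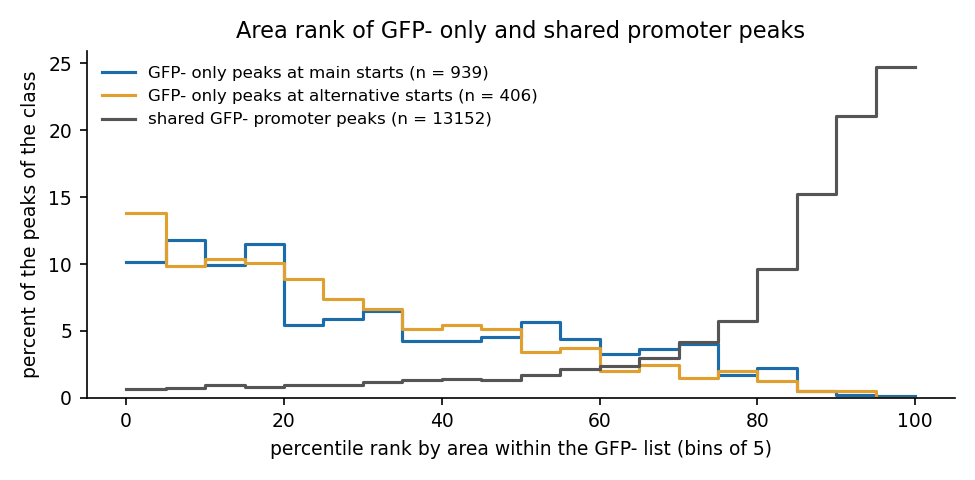
Distribution of the percentile rank by area, in bins of 5, for GFP- only promoter peaks at main and at alternative starts and for shared promoter peaks, as percent of each class. GFP- only peaks crowd at low ranks with medians of 26.6 and 23.6, and shared peaks at high ranks with a median of 88.7.

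A start was called main when the summit lay within 1000 bp of a start of an APPRIS principal transcript, the transcript annotated as carrying the gene's main protein, and alternative otherwise. By this rule 939 peaks (69.8%, 67.3 to 72.2) lay at main starts of 873 genes and 406 (30.2%) at alternative starts. The second count depended on the annotation, with 935 of 1872 when all transcripts of these genes gave starts and 193 of 1132 with the GENCODE basic set. Alternative starts took 11.6% (11.1 to 12.2) of shared promoter peaks and 36.3% (32.1 to 40.7) of GFP+ only promoter peaks. The larger share went along with low rank. Under rank 50, alternative starts took 32.5% (29.7 to 35.4) of GFP- only and 30.4% (28.0 to 32.9) of shared peaks, intervals that overlap. At rank 50 or more they took 22.4% (18.2 to 27.4) of GFP- only and 9.46% of shared peaks. Rank was not matched within that range, where 62 of 312 GFP- only and 10038 of 11797 shared peaks had rank 75 or more.

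What the GFP+ list held at the same gene differed between the start classes, in part by their definition. A gene with an alternative-start peak has a main start over 1000 bp from that summit, where a GFP+ peak can lie. A gene with 1 annotated start has no other start, and 295 of the 1345 peaks, all at main starts, belonged to such genes. Of the 939 main-start peaks, 640 (68.2%, 65.1 to 71.1) belonged to genes with no GFP+ summit within 1000 bp of any of their starts. A further 117 had a GFP+ peak at another start of the gene, and 182 had one within 1000 bp of the same start. Among these last, the GFP- only summit could lie far from the start, as at Frzb (-713 bp), or close to it, as at Angpt1 (42 bp) and Igf1 (51 bp). Of the 406 alternative-start peaks, 69 (17.0%, 13.7 to 20.95) belonged to genes with no GFP+ peak, 260 (64.0%, 59.3 to 68.6) to genes with a GFP+ peak at another start, and 77 lay near a GFP+ peak at the same start. The peaks near a GFP+ peak at the same start had a median rank of 14.2 and lay a median of 709 bp from the start, against 30.3 and 97 bp for peaks of genes without any GFP+ promoter peak. The distance follows in part from the rule, since a GFP- only peak cannot overlap the GFP+ peak near that start. In all, 587 genes had a GFP- only peak at a main start and no GFP+ peak at any start. A gene without a GFP+ peak at a start could still have one nearby with its summit farther off. For the 709 GFP- only peaks of such genes, the nearest GFP+ peak lay a median of 12490 bp away, and at least 115 bp.

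**Figure D2:**
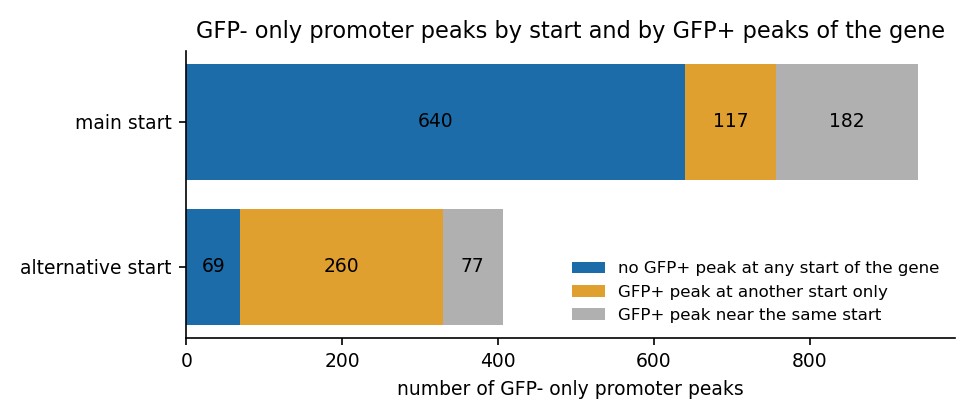
Number of GFP- only promoter peaks at main and alternative starts, divided by whether the GFP+ list held a peak at no start of the gene, only at another start, or within 1000 bp of the same start. Main starts mostly had no GFP+ peak at the gene (640 of 939) and alternative starts mostly had one at another start (260 of 406). Only genes with a further start can hold a GFP+ peak at another start.

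Peaks at the edges of the rule were as follows. Just inside it, the peak nearest to a GFP+ peak belonged to Pbxip1, 12 bp away, followed by Isyna1 at 19 bp and Arhgap45 at 27 bp. Just outside, Naa30 overlapped a GFP+ peak by 9 bp and Vdac1 by 55 bp. By distance, the summits of Slc39a14 and Lypla2 lay at -1000 and -999 bp from a start, and those of Scd4 and Trp63, at -1001 and -1002 bp, were left out. The median gap to the nearest GFP+ peak was 5278 bp, 17 peaks had one within 100 bp, and 499 had none within 10000 bp.

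The largest peaks at main starts belonged to mesenchymal genes and to genes of varied function. Mrgprf, a Mas-related orphan receptor gene, had the largest at chr7:145299228-145301551, of rank 96.1. Dpep1, a membrane dipeptidase gene, followed at chr8:123185355-123186677 with rank 91.9, and Dclk1, encoding a doublecortin-like kinase, at chr3:55241683-55243187 with rank 91.8. None of the 3 genes had a GFP+ peak at any start, and at Dclk1 the nearest GFP+ peak was 115375 bp away.

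Next came Islr, a leucine-rich repeat gene of mesenchymal cells, with rank 89.8, and Sox9, a transcription factor gene of cartilage and valve mesenchyme, with rank 89.1. Emp3, a membrane protein gene, had rank 86.6 and Msc, which encodes the helix-loop-helix factor musculin, rank 86.2. Tmem119, a membrane protein gene, had rank 85.7, Tcf21, a factor of epicardium-derived fibroblasts, 83.8, and Enox1, an oxidase gene, 83.5. Pdgfrb, the PDGF receptor of mural cells and fibroblasts, had rank 83.0 and C1qtnf1, encoding a secreted C1q-related protein, 82.9. Of these 12 genes, Islr and C1qtnf1 had a GFP+ peak at another start, of rank 74.7 and 50.8 in the GFP+ list, and the other 10 had none, although at Emp3 a GFP+ peak with its summit farther off lay 286 bp away.

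Fibroblast genes were the list most often represented. Of 24 fibroblast marker genes, 18 had a GFP- only promoter peak (75%, 55.1 to 88.0), 17 of them at a main start, beside 5.57% of all genes. The median rank of each gene's largest such peak was 69.9, beside 26.1 over all 1208 genes. The 14 without a GFP+ peak at any start included the matrix genes Col1a2 (rank 78.3), Lox (79.4), Dcn (66.1) and Col3a1 (45.1), the collagen receptor Ddr2 (69.2), the protease Fap (66.1), Tcf21 and Dpep1. Mfap5 (75.4), Mgp (68.2), Dpt (51.5), Pi16 (51.0), Thy1 (40.6) and Lum (30.8) completed them. At Mgp a GFP+ peak with its summit farther off lay 633 bp away.

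The other 4 fibroblast genes had a GFP+ peak as well. Pdgfra, the PDGF receptor that marks cardiac fibroblasts, had GFP- only peaks of rank 70.6 and 70.1 at a main start, beside a shared promoter peak of rank 96.5 that met a GFP+ peak of rank 87.05. Vcan and Islr had GFP- only peaks of rank 80.3 and 89.8 at a main start and GFP+ peaks elsewhere in the gene's starts. Gsn had its GFP- only peak at an alternative start. Of the 6 fibroblast genes without such a peak, Cd248, Col1a1, Fbln1, Fbln2 and Smoc2 had a promoter peak in both lists, of rank 74.7 to 95.6 in the GFP- list and 31.0 to 80.7 in the GFP+ list, and Postn had none in either.

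Mural genes, of pericytes and smooth muscle, gave 10 of 22 (45.5%, 26.9 to 65.3), beside 5.57% of all genes. The median rank was 47.4. None of the 10 had a GFP+ summit within 1000 bp of any start. A GFP+ peak with its summit farther off lay 843 bp from the peak of Tagln, 853 bp from that of Ndufa4l2 and 1023 bp from that of Vtn. Among these 10, most pericyte genes stood higher than the contractile genes. Pdgfrb had rank 83.0, Ndufa4l2 75.4, Colec11 64.2 and Higd1b 56.3. The receptor gene Notch3 had 49.6, Cox4i2 45.2 and Vtn 42.4, while Rgs5 had 16.2. The contractile genes Acta2, at an alternative start, and Tagln, at a main start, had ranks of 27.7 and 7.99. A further 9 mural genes had promoter peaks that were not GFP- only, among them Cspg4 (GFP- rank 85.6, GFP+ rank 76.1). Others were Kcnj8 (83.4 and 49.1), Abcc9 (79.2 and 70.0), Myh11 (73.7 and 60.3) and Des (93.2 and 85.7). Cnn1, Lmod1 and Mylk had no promoter peak in either list.

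Cardiomyocyte genes stood at the background share. Of 22 cardiomyocyte genes, Nkx2-5 alone had a GFP- only peak (4.55%, 0.807 to 21.8, beside 5.57% of all genes), of rank 10.6 at an alternative start, and its main start carried a shared peak of rank 89.6 with a GFP+ peak of rank 81.5. Genes of the contractile apparatus had large promoter peaks in both lists: Tnni3 had rank 99.8 in each, Myl2 99.7 and 98.7, Tnnt2 99.4 and 94.3, and Actn2 94.9 and 93.7 in the GFP- and GFP+ list. The GFP- nuclei thus held cardiomyocyte promoter peaks, as their label implies, and the GFP+ list held them too. Why was not tested. Fabp3, Myh6 and Nppa counted as having no promoter peak, but the starts of Fabp3 and Myh6 lay inside peaks of both lists whose summits were over 1000 bp away.

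Endothelial genes gave 0 of 22, and the rule itself removes any GFP- peak that meets a GFP+ peak over a start. The 15 with a main-start GFP- peak had a median rank of 48.3 in the GFP- list and ranged widely, with Cdh5, the gene that drives Cre, at rank 17.96 in the GFP- and 85.3 in the GFP+ list, Cldn5 at 9.75 and 87.9, and Gpihbp1 at 4.98 and 83.4. Kdr had rank 74.3 and 90.0, Flt1 80.8 and 94.7, and Tek ran the other way with 81.1 and 54.1. Another 7 genes, Emcn, Erg, Mmrn2, Pecam1, Plvap, Sox17 and Vwf, had a promoter peak only in the GFP+ list.

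For the minor cell types of the heart, 0 to 2 genes a list had a GFP- only peak, at shares not told apart from the 5.57% of all genes in lists of this size. Of 13 epicardial and mesothelial genes, Bnc1, a zinc finger factor gene, had a GFP- only peak of rank 13.7, and of 15 Schwann cell genes, Prx, the myelin protein periaxin, had one of rank 16.5, near a GFP+ peak at the same start. Of 17 neuron genes, Tubb3 had rank 39.0 and Prph, encoding the peripheral nerve filament peripherin, rank 16.2. Of 18 macrophage genes, C1qb had rank 19.5, and 14 genes, among them Csf1r, Ptprc, Adgre1 and Cx3cr1, had no promoter peak in either list. Of 16 lymphocyte genes 15 had none, and neither the 8 adipocyte nor the 9 pacemaker genes had a GFP- only peak.

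**Figure D3:**
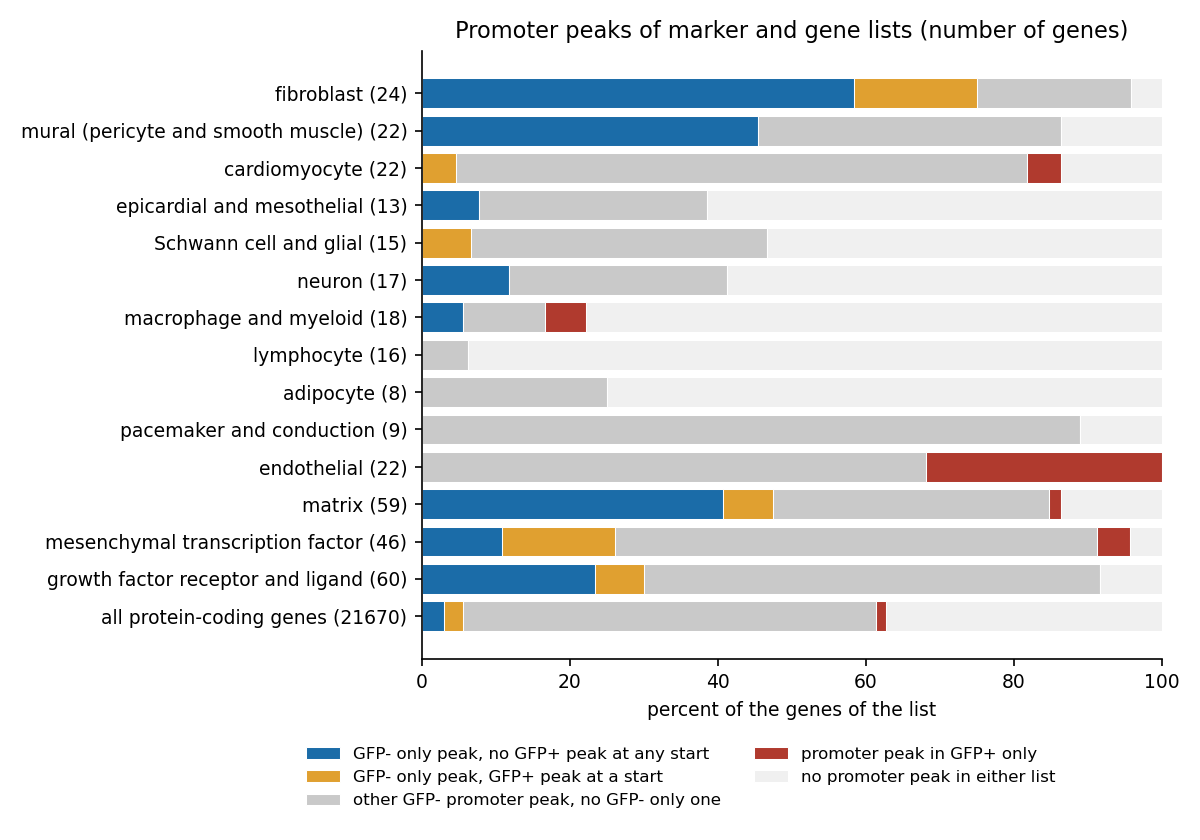
Share of the genes of each marker or gene list with a GFP- only promoter peak and no GFP+ peak at any start, a GFP- only peak with a GFP+ peak at a start, another GFP- promoter peak, a promoter peak only in GFP+ nuclei, or none, with the number of genes in parentheses. Fibroblast (18 of 24), matrix (28 of 59) and mural (10 of 22) genes stand above the 1208 of 21670 genes of the genome.

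The study's own gene sets, taken by name and defined on single-cell RNA-Seq showed the same comparison on longer lists, some of whose genes are also in the lists above. GFP- only promoter peaks were found at 86 of 242 fibroblast genes (35.5%, 29.8 to 41.8), 6 of 110 cardiomyocyte genes (5.45%, 2.52 to 11.4), 9 of 176 endothelial genes (5.11%, 2.71 to 9.43) and 32 of 726 genes shared by the cell types (4.41%, 3.14 to 6.16), beside 5.57% of all genes. In the fibroblast set 55 of the 86 had no GFP+ peak at any start, and in the other 3 sets every gene with a GFP- only peak had one.

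Extracellular matrix genes had GFP- only peaks in 28 of 59 cases (47.5%, 35.3 to 60.0), beside 5.57% of all genes. Of the 28, 24 had no GFP+ peak at any start. Among these, a GFP+ peak with its summit farther off lay 1017 bp from Mfap2, 1092 bp from Col5a3 and 1143 bp from Col6a1 peaks. The matrix genes with a GFP- only peak included fibrillar and beaded-filament collagens, namely Col5a3 at rank 80.9, Col1a2 at 78.3, Col6a1 at 75.7, Col6a3 at 64.6, Col5a2 at 60.6 and Col6a5 at 60.3. Podn, a small leucine-rich proteoglycan, had peaks at a main start (80.3) and an alternative one (79.4). The elastic fibre genes Lox (79.4), Mfap4 (75.9) and Fbn2 (66.8) belonged to them, while the elastic fibre genes Eln (GFP- rank 93.4, GFP+ rank 84.3) and Fbn1 (94.3 and 84.1) had shared peaks. Over the whole collagen family, grouped after the values were seen, 15 of 44 genes (34.1%) had a GFP- only promoter peak, beside 5.57% of all genes.

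Of 46 mesenchymal transcription factor genes, 12 had a GFP- only peak (26.1%, 15.6 to 40.3), beside 5.57% of all genes. In 7 of these 12 the gene also had a GFP+ promoter peak. The 5 without were Sox9 (89.1), Tcf21 (83.8), Foxf2 (79.0), Twist2 (69.7) and Prrx1 (69.6), the last a marker of limb and connective tissue mesenchyme. At Prrx1, however, a GFP+ peak with its summit farther from the starts lay 292 bp from the GFP- only peak. The 7 others, among them Runx1 (6.81), Snai1 (7.16), Ebf2 (17.0) and Zeb2 (18.1), had GFP- only peaks whose largest had rank 6.81 to 43.99 in each gene, beside shared peaks of rank 69.8 to 97.2. The cardiac factors Gata4, Gata6, Hand2 and Tbx20 had shared promoter peaks of rank 97.4 to 99.8.

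Of 60 growth factor and receptor genes, 18 had a GFP- only peak, all at main starts, 14 without a GFP+ peak. The receptors were Pdgfrb (83.0), the Wnt5a receptor Ror2 (80.5), Pdgfra (70.6) and Fgfr4 (2.39). The ligands included Bmp4 (72.2), hepatocyte growth factor Hgf (72.1), Igf1 (58.7), Gdf10 (50.1), Vegfd (49.3), Angpt1 (25.1), Fgf10 (19.3) and Fgf7 (16.6). Secreted Wnt antagonists and related genes were Sfrp4 (71.2), Frzb (33.0), Sfrp2 (31.0) and Dkk3 (3.15), and Pdgfrl (24.4) completed the group. The TGF-beta ligands and receptors on the list, by contrast, had shared peaks, of rank 93.4 for Tgfb2 to 99.0 for Tgfb1.

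Of the 8 genes with the largest peaks at alternative starts, 7 had a GFP+ peak at another start. Kcnip3, which encodes a calcium-binding partner of potassium channels, had the largest at chr2:127481769-127483574 with rank 92.0, 38701 bp downstream of the principal start. Kcnip3 had no GFP+ summit within 1000 bp of a start, though a GFP+ peak lay 916 bp from its GFP- only peak. Prpsap1, encoding a partner of phosphoribosyl pyrophosphate synthetase, followed at chr11:116493588-116495197 with rank 90.3 and a GFP+ peak of rank 91.3 at another start. Aldh16a1, an aldehyde dehydrogenase family gene, had rank 87.8 at chr7:45144255-45145452, but the only transcript starting there is annotated with an incomplete 5′ end. Limk1, the kinase that phosphorylates cofilin, had rank 85.9 at chr5:134677201-134679338, with a GFP+ peak of rank 99.1 at another start.

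Gsn encodes gelsolin, an actin-severing protein with a cytoplasmic and a secreted plasma form that differ at the amino end. Its GFP- only peak, chr2:35282045-35282783, had rank 84.7 and lay 25918 bp downstream of the principal start at a transcript of 780 residues, against 731 for the principal one. The principal start carried a shared peak of rank 83.4 that met a GFP+ peak of rank 77.1. Dlg4, encoding a postsynaptic scaffold, had rank 84.2, Stox2, a winged helix gene, 83.5 and Tenm3, a teneurin gene, 82.8, with GFP+ peaks of rank 11.8, 91.5 and 55.3 at other starts. For Limk1 the alternative transcript encodes 639 residues against 647, and for Kcnip3 230 against 256.

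**Figure D4:**
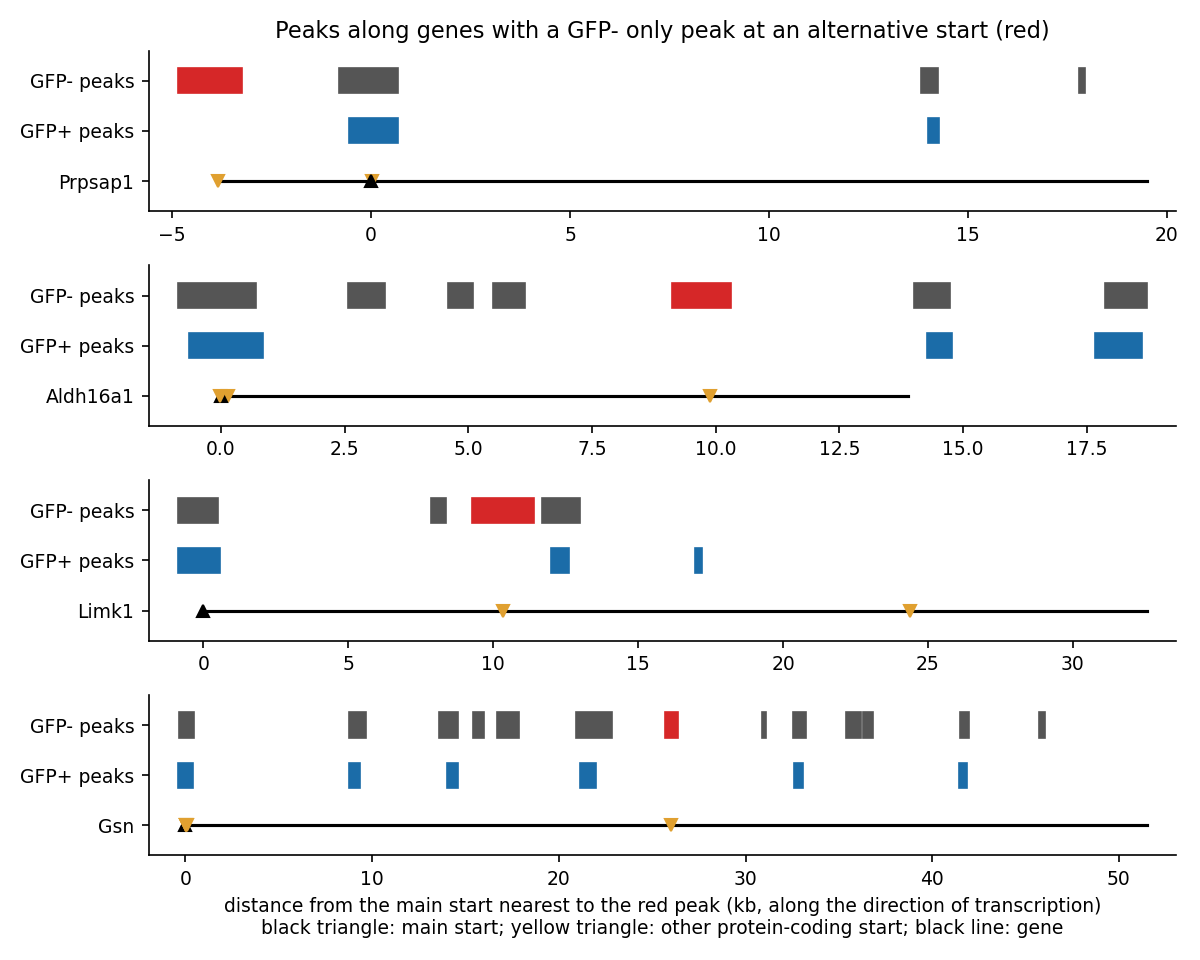
Peaks of the GFP- (upper row) and GFP+ list (middle row) along the 4 genes with the largest GFP- only peak, in red, at an alternative start and a GFP+ peak at another start, in kb from the main start. At Prpsap1, Aldh16a1, Limk1 and Gsn the main start lies in a peak of both lists and the alternative start in a GFP- peak alone.

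Over all 406 alternative-start peaks, 305 (75.1%) lay downstream of the principal start and 101 upstream, and the median distance in either direction was 18706 bp. In 110 (27.1%, 23.0 to 31.6) a transcript at that start used the same start codon as a principal transcript. The annotated coding sequence was shorter than the principal one in 355, equal in 5 and longer in 46, and Gsn was among the longer. For 74 (18.2%, 14.8 to 22.3) all transcripts at the start were annotated with an incomplete 5′ end, and whether such an annotated start is a true one was not tested. An incomplete annotation can itself appear shorter and farther downstream. Among the other 332 peaks, the coding sequence was shorter in 281 (84.6%) and 232 (69.9%) lay downstream of the principal start. Only 24 genes had GFP- only peaks at both a main and an alternative start. Genes with 2 or more such peaks numbered 130, and 7 had 3: Por, Sept9, Slc45a4, Frmd4a, Dock10, Tmcc3 and Psd3.

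GFP- only promoters were poorer in CpG than shared ones, and the difference was larger at rank 50 or more than under rank 50. A start was called CpG-rich when the 300 bp around it had over 50% G and C and a ratio of observed to expected CpG over 0.6. At rank 50 or more, 27.9% (23.2 to 33.1) of GFP- only and 78.2% (77.4 to 78.9) of shared promoter peaks had a CpG-rich start. Under rank 50 the shares were 34.1% (31.2 to 37.0) and 40.3% (37.7 to 42.9). Rank was not matched within these ranges: at rank 50 or more, 62 of 312 GFP- only and 10038 of 11797 shared peaks had rank 75 or more. Whether the wider difference there goes with the remaining difference in rank was not tested. Of main starts, 40.1% (37.1 to 43.3) of GFP- only and 79.2% (78.5 to 79.97) of shared peaks were CpG-rich, and of alternative starts 15.3% (12.1 to 19.1) and 36.6% (34.3 to 39.1). GFP+ only promoter peaks had 31.1% (27.1 to 35.4).

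The gene lists differed among themselves in CpG. None of the 17 fibroblast genes and 1 of the 9 mural genes with a main-start peak had a CpG-rich start, whereas 6 of 11 transcription factor genes, 7 of 18 growth factor genes and 4 of 26 matrix genes did. The ratio of observed to expected CpG was 0.28 for Pdgfrb and 0.26 for Tmem119, and among the factor genes 0.89 for Foxf2, 0.80 for Twist2, 0.67 for Sox9, 0.48 for Tcf21 and 0.34 for Prrx1.

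Consensus words were counted in 200 bp at each summit. AP-1, the word of FOS and JUN dimers, stood in 8.25% (6.90 to 9.84) of GFP- only promoter peaks, 2.40% (2.15 to 2.68) of shared ones, 2.71% (1.59 to 4.59) of GFP+ only ones and 2.95% of all GFP- promoter peaks. The intervals of GFP- only and shared peaks did not overlap in either range of rank. Under rank 50 the share was 7.16% (5.74 to 8.90) in GFP- only and 3.76% (2.87 to 4.91) in shared peaks, and at rank 50 or more 11.9% (8.73 to 15.9) and 2.25% (1.99 to 2.53). For AP-1 and the words below, rank was not matched within these ranges. Sox9, Ror2, Dclk1, Col6a1 and Vegfd were among the named genes with the word.

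The TCF21 word stood in 2.23% (1.57 to 3.17) of GFP- only and 0.738% (0.605 to 0.899) of shared peaks, with 0.876% over all GFP- promoter peaks. At rank 50 or more it stood in 4.17% (2.45 to 6.997) and 0.661%, and under rank 50 in 1.65% (1.03 to 2.62) and 1.40% (0.900 to 2.18), intervals that overlap. Dpep1, Higd1b, Igf1, Omd and Prpsap1 held it at the summit. EBF stood in 2.08% (1.44 to 2.99) against 0.715% (0.584 to 0.874) and RUNX in 3.42% (2.57 to 4.53) against 1.67% (1.46 to 1.90), beside 0.842% and 1.83% of all GFP- promoter peaks. In GFP+ only promoter peaks the TCF21 word stood in 1.46% (0.710 to 2.99), EBF in 1.67% (0.849 to 3.26) and RUNX in 2.92% (1.75 to 4.85), intervals that overlap those of GFP- only peaks. Within ranges of rank, the intervals of RUNX overlapped both under rank 50 and above it, and those of EBF under rank 50.

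The words of endothelial factors stood near the background share. ETS stood in 2.23% (1.57 to 3.17) of GFP- only, 2.58% of shared, 4.80% (3.22 to 7.10) of GFP+ only and 2.55% of all GFP- promoter peaks, and SOX in 0.967% (0.566 to 1.65), 1.19%, 3.55% (2.23 to 5.61) and 1.17%. The GC box, a word of CpG islands, stood in 8.33% (6.97 to 9.93) of GFP- only and 19.9% of shared peaks, with 18.8% over all. TEAD stood in 10.1% and 7.41% with 7.66% over all, NFI in 12.3% and 7.91% with 8.32% over all, and the CCAAT box in 22.2% and 29.5% with 28.8% over all. In GFP+ only peaks the GC box stood in 5.22% (3.56 to 7.59), TEAD in 12.9% (10.2 to 16.2), NFI in 12.3% (9.67 to 15.6) and the CCAAT box in 20.7% (17.3 to 24.5). These intervals overlap those of GFP- only peaks. At alternative starts TEAD stood in 10.8% of GFP- only and 11.1% of shared peaks, and NFI in 12.8% and 15.4%. Under rank 50 the shares of GFP- only and shared peaks were 7.26% and 7.82% for the GC box, 9.97% and 10.9% for TEAD and 12.4% and 12.9% for NFI. The CCAAT box turned there to 22.5% (20.02 to 25.1) and 19.1% (17.1 to 21.3). At rank 50 or more the GC box stood in 11.9% (8.73 to 15.9) of GFP- only and 21.3% (20.6 to 22.1) of shared peaks. TEAD stood there in 10.6% (7.63 to 14.5) and 7.002% (6.56 to 7.48). NFI stood in 12.2% (9.003 to 16.3) and 7.33% (6.88 to 7.82), and the CCAAT box in 21.5% (17.3 to 26.4) and 30.7% (29.8 to 31.5). For each of these words the intervals at rank 50 or more did not overlap. The TATA box stood in 4.31% and 2.96% with 3.08% over all and MEF2 in 1.93% and 1.41% with 1.46% over all. Both directions turned under rank 50, to 4.45% and 5.46% for the TATA box and 2.42% and 2.58% for MEF2, with overlapping intervals, and at rank 50 or more MEF2 stood in 0.321% and 1.27%.

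The CArG box was rare, in 10 of 1345 GFP- only peaks (0.743%) and 0.821% of all GFP- promoter peaks. Of the genes named here it stood at the summits of Acta2, Tagln and Nr2f1, the first pair being smooth muscle genes known to respond to serum response factor.

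**Figure D5:**
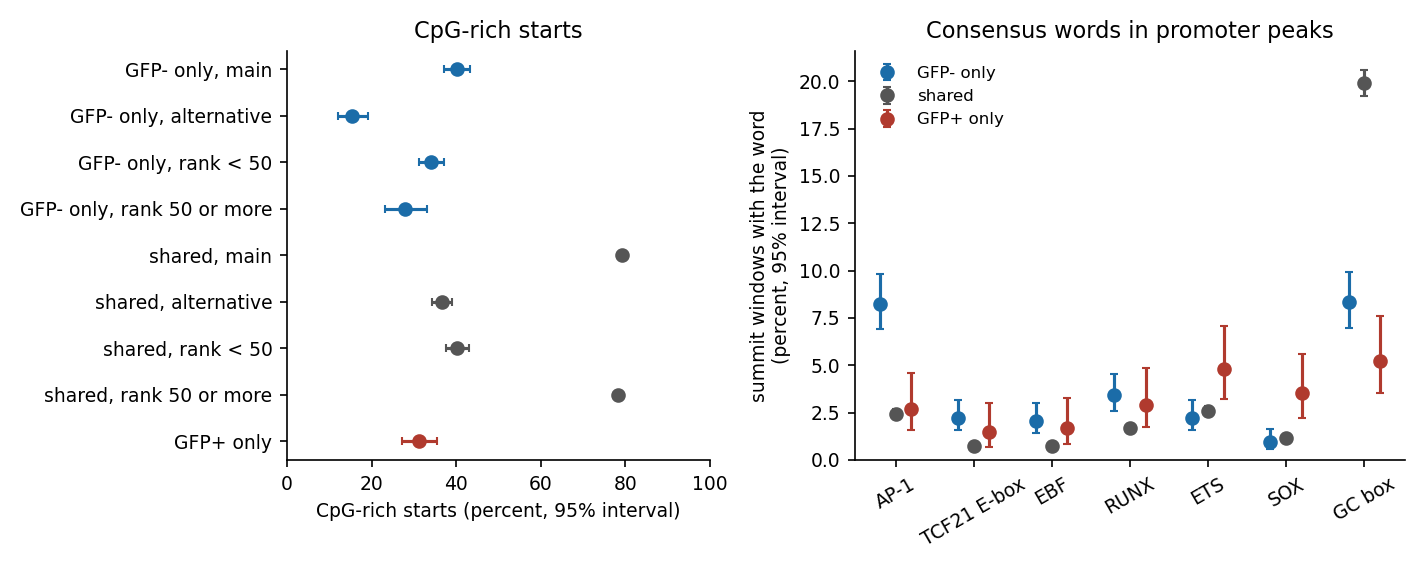
Left, share of promoter peaks with a CpG-rich start by class and by rank, and right, share with a consensus word in 200 bp at the summit, each with the 95% Wilson interval. The CpG shares of GFP- only and shared peaks lie farther apart at rank 50 or more (27.9% and 78.2%) than under rank 50 (34.1% and 40.3%). Rank is not matched within these ranges. AP-1 is more frequent in GFP- only than in shared and GFP+ only peaks (8.25%, 2.40% and 2.71%).

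Around GFP- only promoters at main starts, a larger share of the distal GFP- peaks was GFP- only. Within 50 kb of the starts of the 873 genes with such a peak at a main start, 40.2% of 4264 distal GFP- peaks overlapped no GFP+ peak, against 31.9% of 2315 around genes with one at an alternative start and 27.9% of 51476 around genes with a shared main-start peak. For the 587 genes without any GFP+ promoter peak the share was 42.2%, and over all GFP- peaks it was 30.3%. The median number of GFP- only distal peaks per gene was 1 for the 873 genes and for those with a shared peak. The means were 1.96 and 1.34. Distal peaks within one window can be counted for neighbouring genes more than once. Examples chosen after the values were seen are Col3a1, with 10 of 10 distal GFP- peaks GFP- only, Pdgfrb with 11 of 15, Dpep1 with 10 of 13, the protease gene Htra3 with 11 of 17, Mrgprf with 7 of 8 and Msc with 7 of 7.

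Some of these genes were neighbours. Of the 587 genes, 70 stood next to another of them in 32 runs. The longest run, of 4 on chromosome 13, held Ecm2, Aspn and Omd, leucine-rich matrix protein genes, with Tes3-ps. A run of 3 held the lipid transporter genes Abca8a, Abca9 and Abca6, and another Rgs5, Rgs4 and Ccdc190. Neighbouring genes can share a peak's surroundings, so these are not separate observations.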

How the data were processed

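The data were lists of ATAC-Seq peaks from 2 GFP- and 2 GFP+ libraries of sorted heart nuclei, grouped by their labels. The authors used fastp for trimming, bowtie2 for mapping to mm10, samtools to filter on mapping quality and Picard against duplicates. After downsampling, Genrich called the peaks in ATAC-Seq mode, without chrM, chrY and blacklisted regions. The submitters' processing notes name Bowtie2 2.3.5.1, SAMtools 1.19 and CASAVA 1.4. Each list was called from both replicates together, which leaves no replicate error, and downsampling evens depth but not the share of reads in peaks. The deposited area is a signal summed over the peak, the deposited score is capped by the authors' caller, and the deposited -log10 p-value belongs to the summit. Score and -log10 p-value entered no main result.

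From these lists, peaks were intersected, summits assigned to the nearest protein-coding transcript start of GENCODE M21, and areas ranked within each list. Main starts were those of APPRIS principal transcripts, the longest coding sequence where none was tagged. Python 3.11.15, pandas 2.3.3, scipy 1.17.1, pysam 0.24.0 and matplotlib 3.10.9 were used. The overlap and assignment steps were tested on simulated data with 0 errors in 1000 peaks. A promoter peak needs its summit within 1000 bp, so a broad peak over a start can be missed.

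The named genes are the 12 with the largest peak at a main start, the 8 with the largest at an alternative start, genes of 11 cell type and 3 gene group lists, with values for the larger peaks of the group lists, and peaks at the rule's edges. The result of 1 further gene is not reported here. The peaks, lists and words were chosen with earlier results of these data known. Alternatives changed the overlap, summit distance, transcripts, main start, area limits and windows. Comparisons within ranges of rank and the transcripts with a complete 5′ end were added after seeing the data.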

Additional observations from a re-analysis of the deposited data

How the results depend on the processing

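No paired analysis was possible because each population has a single list called from both replicates, and for the same reason no replicate could be left out. Of 84 values under other settings, 63 stayed within 1.5 times the count or within the interval reported, and 21 moved. Requiring an overlap of 50% of both peaks gave 2462 GFP- only promoter peaks, 1793 at main and 669 at alternative starts, and 10 endothelial genes in place of 0. A summit limit of 250 bp gave 745, 524 and 221. Keeping GFP- peaks of rank 50 or more left 312, 242 and 70, with 193 at genes without a GFP+ promoter peak, 4 mural and 15 matrix genes, and 15 of the 18 fibroblast genes. All transcripts of protein-coding genes gave 935 alternative-start peaks and GENCODE basic transcripts 193. With GFP+ peaks of rank 25 or more, 1154 peaks belonged to genes with no GFP+ peak. CpG-rich shares at the summit were 35.1% for main and 10.3% for alternative starts. In 400 bp windows the share with AP-1 was 2.44 times that of shared peaks in place of 3.43, and with EBF 1.79 in place of 2.91. Within 20 kb the distal share was 1.61 times that of shared genes in place of 1.44. Over all settings, fibroblast genes numbered 15 to 20. The cause of these moves was not tested beyond what each setting changes.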

Other observations

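Beyond the marker lists, GFP- only promoter peaks were counted in gene families picked by symbol after the values were seen, beside 5.57% of all genes. Potassium channel genes had them in 15 of 94 cases, 12 without a GFP+ peak at any start, among them Kcnj10, Kcnk2, Kcnt2 and the smooth muscle channel subunit Kcnmb1. Matrix metalloproteinase genes had them in 5 of 22, all 5 without a GFP+ peak, namely Mmp2, Mmp8, Mmp16, Mmp19 and Mmp21. Solute carrier genes had them in 25 of 371, zinc finger genes named Zfp in 11 of 394, ribosomal protein genes in 2 of 98 and olfactory receptor genes in 4 of 1134.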
